A study of Rattus norvegicus with 6 samples.

Results

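Dnmt3l, Tsx, Dkkl1, Calr3 and Mcmdc2 are transcripts known chiefly from male germ cells and testis, and they were examined here in rat kidney. These 5 genes were chosen by the p-value of benzyl acetate against vehicle in the same arrays, where they stood among the lowest of 31179 genes tested, 12276 of them with a symbol. The differences of these genes between the groups are therefore a description of what chose them, and no test of them is given. Renal cortex RNA came from male Sprague-Dawley (Crl:CD(SD)) rats bought at 5 weeks of age, 1 animal per array. The treated group was 3 rats given benzyl acetate, a fragrance and flavour ester, at 1000 mg/kg/day for 4 weeks, and the vehicle group was 3 rats given corn oil for the same time. Labelled RNA was hybridised to 1-colour Agilent arrays, and levels below are log2 of the processed spot signal over the array's 75th percentile, so that 0 is a signal at that percentile.

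Germ-cell genes of this kind are mostly kept silent outside the gonads, by DNA methylation of their promoters and by repressor complexes, and Dnmt3l belongs to that system itself. It encodes a catalytically inactive partner of the de novo DNA methyltransferases, and in mice it is needed to methylate transposons in male germ cells and imprinted loci in oocytes. Tsx is a testis-expressed gene of the X chromosome beside the X inactivation centre. Dkkl1 encodes a dickkopf-like glycoprotein of the sperm acrosome, Calr3 the testis form of the endoplasmic reticulum chaperone calreticulin, and Mcmdc2 a protein with a minichromosome maintenance domain that acts in meiotic recombination in mice.

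The sequences around the annotated gene starts are shown because repression of germ-cell genes in somatic tissue is known, from mice, to act at promoters through CpG methylation and through E2F6, a repressor recruited at E2F sites. They are RefSeq windows of the GRCr8 build, from 250 bases before to 50 bases after each start, 5′ to 3′ on the gene's own strand, and 4 of the 5 genes had one. Mcmdc2 is named only. Capitals mark the letters TCCCGC (an E2F core, searched on both strands as TCCCGC or GCGGGA) and CACGTG (an E-box, the same on both strands).
Dnmt3l, chr20:10628940-10629239, minus strand: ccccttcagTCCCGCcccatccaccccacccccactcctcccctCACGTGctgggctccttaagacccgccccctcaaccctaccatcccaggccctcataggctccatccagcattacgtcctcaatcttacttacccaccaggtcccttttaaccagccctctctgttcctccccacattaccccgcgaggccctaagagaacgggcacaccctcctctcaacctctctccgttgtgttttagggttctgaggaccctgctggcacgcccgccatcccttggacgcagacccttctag
Tsx, chrX:72492897-72493196, plus strand: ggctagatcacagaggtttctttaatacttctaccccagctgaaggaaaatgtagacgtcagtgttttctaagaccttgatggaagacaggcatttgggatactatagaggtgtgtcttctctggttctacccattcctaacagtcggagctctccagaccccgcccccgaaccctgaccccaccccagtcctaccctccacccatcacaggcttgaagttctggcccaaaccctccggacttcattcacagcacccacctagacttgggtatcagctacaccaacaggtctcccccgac
Dkkl1, chr1:104835662-104835961, minus strand: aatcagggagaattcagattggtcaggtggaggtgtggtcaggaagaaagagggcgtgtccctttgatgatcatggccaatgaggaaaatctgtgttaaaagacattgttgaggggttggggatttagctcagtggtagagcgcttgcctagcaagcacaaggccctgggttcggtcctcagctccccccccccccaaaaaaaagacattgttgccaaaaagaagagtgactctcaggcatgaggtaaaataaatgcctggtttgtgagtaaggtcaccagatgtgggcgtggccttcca
Calr3, chr16:17429855-17430154, plus strand: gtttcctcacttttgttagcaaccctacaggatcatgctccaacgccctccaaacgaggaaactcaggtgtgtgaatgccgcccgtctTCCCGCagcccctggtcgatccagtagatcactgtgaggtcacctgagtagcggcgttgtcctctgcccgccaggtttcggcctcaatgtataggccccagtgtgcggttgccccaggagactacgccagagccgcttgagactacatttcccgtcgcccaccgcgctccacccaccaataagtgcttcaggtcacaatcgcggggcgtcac

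The Calr3 window held 20 CpG dinucleotides and the Dnmt3l window 11, against a median of 7 over 33469 rat windows of the same length. Of those windows, 75.8% had fewer than Calr3 and 61.0% fewer than Dnmt3l. CpG content was not compared with windows of the tested genes alone. Tsx had 6 and Dkkl1 had 4, both below that median. Dnmt3l and Tsx had lower signal in benzyl acetate rats, and Calr3 and Dkkl1 higher signal. Promoter methylation was not measured here, and a link of CpG content to these differences was not tested. TCCCGC was found in the Dnmt3l window, starting at -241 from the gene start, and in the Calr3 window, starting at -162, and its letters on either strand were in 18.7% of all windows and in 32.3% of those of the genes tested. CACGTG was found at -206 in Dnmt3l, against 6.42% of all windows and 8.67% of those of the genes tested. Neither motif was among the letters of the Tsx or Dkkl1 window. In Dkkl1 a stretch of 30 bases that starts at -132 (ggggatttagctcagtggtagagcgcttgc) was also present in 32 other windows, 0.0956% of all.

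Dnmt3l had processed signals of 64.2, 45.0 and 52.2 on the benzyl acetate arrays, against 113, 188 and 173 on the vehicle arrays. All 3 benzyl acetate arrays lay below all 3 vehicle arrays, and vehicle replicate 1 was the lowest of its group. On the log2 scale relative to the 75th percentile the levels were -3.94, -4.46 and -4.08 in benzyl acetate rats, against -3.15, -2.48 and -2.61 in vehicle rats. The means were -4.16 ± 0.27 in benzyl acetate rats and -2.75 ± 0.36 in vehicle rats (SD, n = 3 each). The log2 difference of -1.41 had a standard error of 0.22 and a 95% interval of -1.95 to -0.88, which is a 2.66-fold lower level in benzyl acetate rats. With a normexp background correction in place of the software's own subtraction the difference was -0.88 in the same direction.

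The probe behind these values (A_64_P001461) was flagged well above background on all 6 arrays, but it was dim. Its spot was 1.64 to 4.67 times the local background, and it ranked between percentiles 39.3 and 55.9 of the probes on its array. Dnmt3l has a second, dimmer probe (A_44_P515281), which did not enter the test because it was well above background on 2 of 3 arrays in each group. Its levels were -5.48, -5.31 and -5.80 in benzyl acetate rats, against -6.04, -4.62 and -4.55 in vehicle rats. There the groups overlapped, since vehicle replicate 1 was lower than every benzyl acetate array, and the difference in means was -0.46. Both probes were lower in benzyl acetate rats on average, and 1 of the 2 separated the groups. Probe sequences were not used here, so whether each probe of Dnmt3l and Mcmdc2 measures the named transcript alone was not tested.

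Tsx was also lower in benzyl acetate rats. Its processed signals were 310, 384 and 488 in benzyl acetate rats, against 964, 1162 and 1084 in vehicle rats. No benzyl acetate array reached the level of any vehicle array. The levels were -1.67, -1.37 and -0.86 in benzyl acetate rats, against -0.06, 0.15 and 0.04 in vehicle rats, so that the vehicle animals lay close to the 75th percentile of their arrays. The means of -1.30 ± 0.41 in benzyl acetate rats and 0.04 ± 0.10 in vehicle rats (SD, n = 3 each) differed by -1.34 on the log2 scale (standard error 0.21, 95% interval -1.85 to -0.83), a 2.53-fold lower level. The benzyl acetate animals were the more variable here, with replicate 3 the highest of them, and without it the difference was -1.56. The one probe for Tsx (A_43_P11975) gave spots 8.31 to 26.1 times the local background and was well above it on all 6 arrays.

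Dkkl1 was higher in benzyl acetate rats. Its processed signals were 337, 367 and 344 in benzyl acetate rats, against 165, 168 and 272 in vehicle rats. The groups did not overlap, the benzyl acetate animals were close together, and vehicle replicate 3 stood apart from the other vehicle animals towards the benzyl acetate values. As log2 levels these were -1.55, -1.43 and -1.36 in benzyl acetate rats, against -2.60, -2.64 and -1.96 in vehicle rats. Means of -1.45 ± 0.10 in benzyl acetate rats and -2.40 ± 0.38 in vehicle rats (SD, n = 3 each) gave a log2 difference of 0.95 (standard error 0.20, 95% interval 0.47 to 1.43), a 1.94-fold higher level. Without vehicle replicate 3 the difference was 1.17. Its one probe (A_64_P014291) gave spots 4.04 to 8.98 times the local background, well above it on all 6 arrays.

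Calr3 was also higher in benzyl acetate rats, by a smaller amount and with little spread. The signals were 450, 542 and 413 in benzyl acetate rats, against 314, 332 and 367 in vehicle rats. The lowest benzyl acetate array was above the highest vehicle array. Levels were -1.13, -0.87 and -1.10 in benzyl acetate rats, against -1.68, -1.66 and -1.53 in vehicle rats. The means, -1.03 ± 0.14 in benzyl acetate rats and -1.62 ± 0.082 in vehicle rats (SD, n = 3 each), differed by 0.59 (standard error 0.097, 95% interval 0.35 to 0.82), a 1.5-fold higher level. A single probe (A_44_P220888) measured it, with spots 6.70 to 11.3 times the local background, well above it on all 6 arrays. The gene overlaps C16h19orf44 in the RefSeq annotation, for which the log2 difference was 0.11 with means of 1.31 in benzyl acetate rats and 1.19 in vehicle rats.

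Mcmdc2 had the smallest difference of the 5. Its signals were 96.3, 80.3 and 74.6 in benzyl acetate rats, against 55.1, 67.4 and 64.1 in vehicle rats. The groups did not overlap, although the lowest benzyl acetate array was close to the highest vehicle array. Levels of -3.36, -3.62 and -3.57 in benzyl acetate rats, against -4.19, -3.96 and -4.04 in vehicle rats, gave means of -3.52 ± 0.14 in benzyl acetate rats and -4.06 ± 0.11 in vehicle rats (SD, n = 3 each). The log2 difference was 0.55 (standard error 0.10, 95% interval 0.29 to 0.80), a 1.46-fold higher level. The probe (A_64_P000381) was well above background on all 6 arrays but dim, with spots 2.13 to 2.89 times the local background.

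The second Mcmdc2 probe (A_44_P806521) did not show that direction. Its levels were -5.33, -6.78 and -6.29 in benzyl acetate rats, against -6.10, -5.61 and -6.0 in vehicle rats, and the groups overlapped with a difference of -0.23. It was well above background on 1 of 3 benzyl acetate arrays and 2 of 3 vehicle arrays, and its spots were only 1.04 to 1.33 times the local background. With the values of both probes averaged and no filter on dim probes, an alternative chosen after seeing the data, the Mcmdc2 difference was 0.16 and that of Dnmt3l was -0.94. For normexp background correction the Mcmdc2 difference was 0.33. Tsx, Dkkl1 and Calr3 have 1 probe each, so the array offers no second measurement of them.

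**Figure D1:**
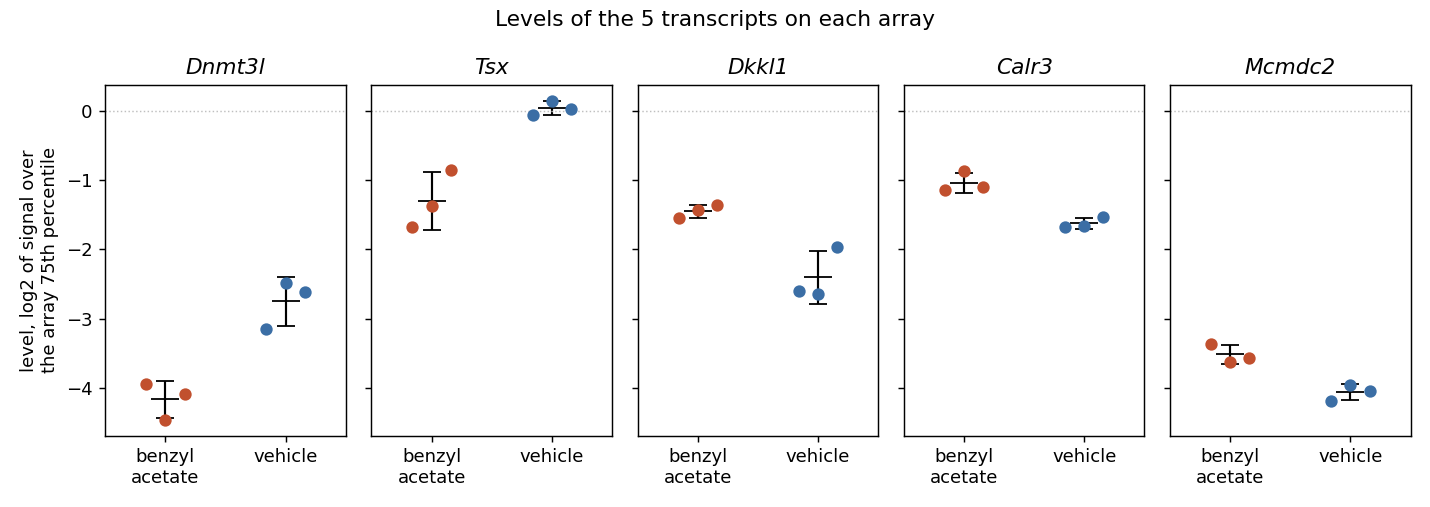
Level of each transcript on each array, as log2 of the signal over the array's 75th percentile (dotted line at 0), with benzyl acetate animals left and vehicle animals right; bars are mean and SD of 3 arrays. Dnmt3l and Tsx were lower in benzyl acetate rats and Dkkl1, Calr3 and Mcmdc2 higher, and in each panel the groups do not overlap.

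**Figure D2:**
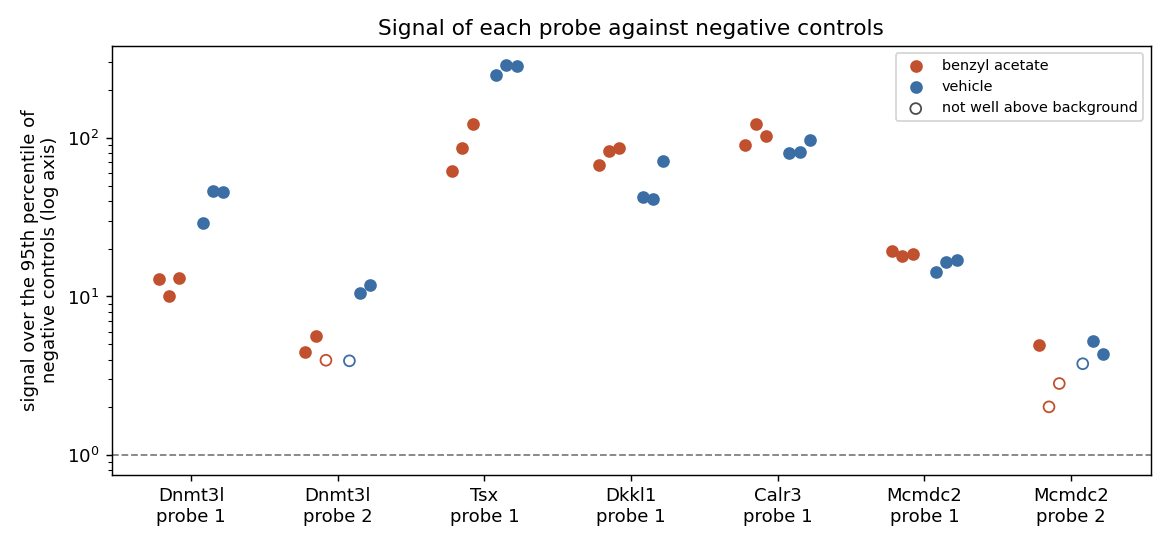
Signal of all 7 probes of the 5 genes on each array, divided by the 95th percentile of that array's negative-control spots (log axis), with benzyl acetate points left of vehicle points and open circles for spots not flagged well above background. The 5 probes used lie 10.1 to 286 times above the negative controls, and the second probes of Dnmt3l and Mcmdc2 lie lower, at 2.01 to 11.9 times.

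Depth of signal differed slightly between the groups. Between 69.0% and 69.8% of probes were well above background in benzyl acetate rats, against 70.5% to 72.0% in vehicle rats, and the 75th percentile of the signal was 883 to 990 against 1003 to 1057 for those groups. The 95th percentile of 308 negative-control spots was 4.01 to 4.98 in benzyl acetate rats and 3.80 to 4.06 in vehicle rats. All 5 probes used lay at least 10.1 times above that percentile on every array, as the plot against negative controls shows. Before any scaling between arrays the log2 differences were -1.53 for Dnmt3l, -1.46 for Tsx, 0.83 for Dkkl1, 0.47 for Calr3 and 0.42 for Mcmdc2. Scaling shifts the difference of every gene by the same small amount, so the signs of these 5 could not change.

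In the fit across all genes with limma and Benjamini-Hochberg adjustment, no gene passed an adjusted p of 0.05 in either direction, and the lowest adjusted p of any gene was 0.271. Without benzyl acetate replicate 3, 3 genes passed as higher and 1 as lower, and without benzyl acetate replicate 1, 2 genes passed as lower. None of the 5 transcripts was among the genes that passed. Their adjusted p was 0.582 for Dnmt3l, Tsx and Calr3, 0.609 for Mcmdc2 and 0.620 for Dkkl1 in limma. All 5 had an unadjusted p under 0.05, which is how they were chosen, and so had 6.74% of all genes tested (3.82% higher and 2.92% lower). Likewise the groups did not overlap for all 5, as for 7.51% of genes higher in benzyl acetate rats and 5.31% lower.

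By rank of p among genes with a symbol, Dnmt3l was 9th, Tsx 10th, Calr3 12th, Mcmdc2 22nd and Dkkl1 38th. The genes beside them in that order came from many families. Zfp583, a zinc finger gene, came just before Dnmt3l with a log2 difference of -0.42, and Cldnd2, a claudin-domain gene, came between Tsx and Calr3 with 0.61. Capn13, a calpain protease, followed Calr3 with -0.63. Mcmdc2 stood between Plpp4, a lipid phosphatase (0.83), and Slc26a4, the anion exchanger pendrin of the cortical collecting duct (-0.96). Dlg4, a scaffold protein best known from synapses (-0.69), preceded Dkkl1, and the gene after it was Hsf2bp, a meiotic recombination gene described below.

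Spread between animals differed among the 5. The residual SD was 0.31 for Dnmt3l, 0.30 for Tsx and 0.28 for Dkkl1, against a median of 0.14 over all genes. Calr3 and Mcmdc2, with smaller differences, had residual SDs of 0.12 and 0.13. Vehicle replicate 1 was hybridised on a different slide from the other 5 arrays, so slide and that animal cannot be told apart. Within the slide that holds both groups the log2 differences were -1.62 for Dnmt3l, -1.39 for Tsx, 0.85 for Dkkl1, 0.56 for Calr3 and 0.48 for Mcmdc2. A fit with slide as a block gives the same values by construction, because the other slide holds only vehicle replicate 1.

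The tissue was checked against kidney markers: all 20 cortex markers were well above background on every array. Whether the 5 transcripts came with a wider germ-cell signal was described with 3 lists of germ-cell genes, in which 91 genes had a probe. Of these 37 were well above background on all 6 arrays and 39 on none, whereas 78.6% to 79.3% of all genes with a symbol were detected per array in benzyl acetate rats and 79.8% to 81.0% in vehicle rats. Ddx4, Piwil1 and Mael of the germ cell RNA pathway, Sycp1, Sycp3 and Dmc1 of meiotic chromosomes, and Acrv1, Adam2, Akap4 and Pgk2 of spermatids were not well above background on any array. Dazl was so on 1 benzyl acetate array and on no vehicle array. The sperm nuclear proteins Prm1, Prm2 and Tnp2 and the acrosomal protease Acr were well above background on all 6. So were 13 of the 28 meiosis genes, among them Prdm9, Hormad1, Sycp2 and Tex15, while 9 were so on none. Of the 24 germ cell RNA genes, 7 were well above background on all 6, among them Ddx25 and Tdrd5, and 11 on none.

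Among the 40 germ-cell genes that passed the filter on dim probes, 3 had an unadjusted p under 0.05 as higher and 1 as lower, a share of 10% beside 6.74% of all genes. None passed after adjustment. The median log2 difference of the 40 was 0.098, beside 0.012 over all genes.

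The 3 on the higher side were spermatid genes: Spmap2, a sperm microtubule protein, with a log2 difference of 0.58, the testis serine kinase Tssk1b with 0.51, and Tmem95, a sperm membrane protein, with 0.32. Levels of Spmap2 were -3.57, -3.40 and -3.24 in benzyl acetate rats, against -4.18, -4.04 and -3.73 in vehicle rats, without overlap. In all, 18 of the 39 spermatid and acrosome genes on the array were tested and their median difference was 0.15. The summed level of all 39, on a linear scale relative to the 75th percentile, was 4.92 to 5.21 in benzyl acetate rats and 4.44 to 5.13 in vehicle rats.

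For meiosis and recombination, the process of Mcmdc2, 14 of 28 genes on the array were tested, and the median difference was -0.017. Of the 14, 1 (7.1%) had an unadjusted p under 0.05, as lower, near the 6.74% of all genes in either direction. The 1 was Hsf2bp, which helps load recombinases at meiotic breaks. It was not well above background on any benzyl acetate array and so passed the filter through the vehicle arrays alone, and its level there was at least 1.46-fold lower than in vehicle rats (limma adjusted p = 0.620). Measured means were -5.90 in benzyl acetate rats and -5.27 in vehicle rats. The summed level of the list was 14.3 to 15.1 in benzyl acetate rats and 13.1 to 13.2 in vehicle rats. Without Spata22, a gene left out after its values were seen, the sums overlapped, at 12.8 to 13.9 in benzyl acetate rats and 12.3 to 12.9 in vehicle rats. In the germ cell RNA and piRNA list 8 of 24 genes were tested and none had an unadjusted p under 0.05, with a median of 0.099. Its brightest tested members were Tdrd7 (0.11) and Nanos3 (-0.080). The summed level of that list, made up mostly of these bright genes, was 12.3 to 13.0 in benzyl acetate rats and 11.9 in each vehicle rat.

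**Figure D3:**
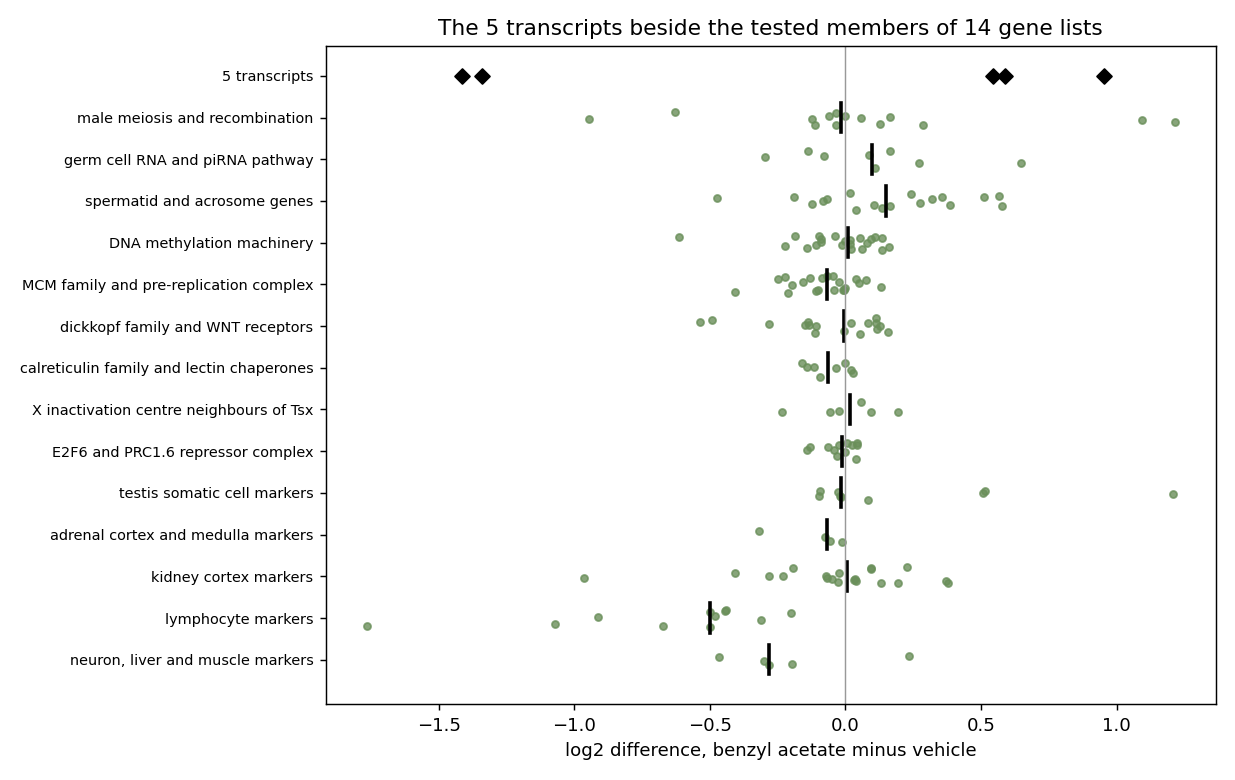
Log2 difference, benzyl acetate minus vehicle, of the 5 transcripts (diamonds, top) and of the tested members of 14 gene lists (points, with a line at each median). The 5 lie between -1.41 and 0.95. Most lists have a median close to 0. The medians farthest from it are those of lymphocyte markers (-0.50), neuron, liver and muscle markers (-0.28) and spermatid genes (0.15).

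The protein families of the 5 genes were set beside them in turn. Dnmt3l acts with DNA methyltransferases, and all 22 genes of the DNA methylation list on the array were tested, with a median difference of 0.0079 and none at an unadjusted p under 0.05. Its partner Dnmt3a had a level of -2.12 in benzyl acetate rats and -2.21 in vehicle rats, a difference of 0.09, and Dnmt1, the maintenance methyltransferase, differed by 0.02. The brightest members were Mbd2, a reader of methylated DNA (-0.090), and Ezh1, a histone methyltransferase (0.055). The list ran from -0.61 to 0.16, and the -1.41 of Dnmt3l, which is not in it, lay below that range.

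Of the minichromosome maintenance and pre-replication list, 21 of 23 genes on the array were tested, none had an unadjusted p under 0.05 and the median was -0.067. In value 17 of the 21 were lower, beside 46.0% of all genes, and of these Gins2 (-0.10) passed the filter through the vehicle arrays alone. Mcmdc2 was on the other side, with 0.55. Mcm7, a subunit of the replicative helicase, had 0.13 and its binding protein Mcmbp -0.042. The dickkopf and WNT receptor list had 17 of 25 genes tested, a median of -0.0051 and 1 gene (5.9%) with an unadjusted p under 0.05, beside 6.74% of all genes. That gene was Dkk3, a secreted dickkopf relative, at -1.74, -1.77 and -1.93 in benzyl acetate rats, against -1.36, -0.98 and -1.50 in vehicle rats. Its log2 difference of -0.54 ran opposite to the 0.95 of Dkkl1.

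Calr3 belongs with the calreticulin family and lectin chaperones, of which 8 of 10 genes on the array were tested, none at an unadjusted p under 0.05, with a median of -0.063. The ubiquitous calreticulin Calr differed by -0.034 and the glucosidase subunit Prkcsh by -0.092, both with intervals that include 0. The 2 testis members of that list, Clgn and Pdilt, were not well above background on any array. The summed level of the list was 39.8 to 41.3 in benzyl acetate rats and 41.3 to 43.2 in vehicle rats. Around Tsx, 6 of 7 genes of the X inactivation centre region on the array were tested, with a median of 0.018. Of the 6, 1 had an unadjusted p under 0.05, beside 6.74% of all genes. That gene was Rlim, a ubiquitin ligase that activates X inactivation, with means of -1.11 in benzyl acetate rats and -0.88 in vehicle rats and a difference of -0.23.

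The E2F6 and PRC1.6 complex, which represses germ-cell genes in somatic cells, had all 12 genes on the array tested, none at an unadjusted p under 0.05, and a median of -0.012. Its brightest members, the histone deacetylases Hdac2 and Hdac1, differed by 0.0046 and -0.14. The summed level of this list, in which bright genes such as Hdac1 weigh most, was 31.1 to 31.7 in benzyl acetate rats and 32.1 to 32.5 in vehicle rats. Of the 12 genes, 5 were higher and 7 lower in value, beside 46.0% of all genes lower.

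Markers of other cell types were read for the same animals. Testis somatic markers had 9 of 16 genes tested, none with an unadjusted p under 0.05 and a median of -0.017, and their brightest members were Inhbb (0.51), an activin subunit, and the hormone Insl3 (0.085). Their summed level was 7.56 to 12.7 in benzyl acetate rats and 6.99 to 8.63 in vehicle rats, and Inhbb alone made up most of it. Levels of Inhbb were 3.41, 2.46 and 3.24 in benzyl acetate rats, against 2.36, 2.51 and 2.71 in vehicle rats. Of the 16 markers, 7 were well above background on all 6 arrays and 4 on none. Among steroidogenic members Cyp17a1 was so on all 6, and Star and Nr5a1 on none. Adrenal markers had 4 of 10 tested with a median of -0.066 and no unadjusted p under 0.05; Mrap differed by -0.32 and Th by -0.056, and 5 of the 10 were not well above background on any array, among them Cyp11b1 and Cyp11b2, while Cyp21a1 and Pnmt were well above it on all 6. Their summed level, of which Mrap made up the largest part, was 6.60 to 7.18 in benzyl acetate rats and 6.20 to 10.1 in vehicle rats. Neuron, liver and muscle markers had 5 of 9 tested with a median of -0.28 and none under that p, with Alb at -0.46 and Mbp at -0.20. Their summed level was 0.644 to 3.81 in benzyl acetate rats and 0.939 to 2.65 in vehicle rats. Much of that range came from Alb, which ran from -3.27 to 1.62 among benzyl acetate rats.

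Among lymphocyte markers, all 11 tested of 12 on the array were lower in value in benzyl acetate rats, beside 46.0% of all genes, with a median of -0.50. Cd79b, like Cd2 below, passed the filter on dim probes through the vehicle arrays alone, which favours lower values. With detection required on all 6 arrays, 9 genes remained, with a median of -0.50. No marker passed after adjustment, and 2 of the 11 had an unadjusted p under 0.05, beside 6.74% of all genes. Gzma, a cytotoxic granule protease, differed by -0.50. Cd2, a T and NK cell receptor, was not well above background on any benzyl acetate array, so it passed the filter through the vehicle arrays alone. Its vehicle levels were -4.50, -5.63 and -2.97, and it was at least 2.79-fold lower in benzyl acetate rats (limma adjusted p = 0.710), or at least 1.72-fold lower without vehicle replicate 3. The summed level of the list was 3.04, 2.50 and 3.17 in benzyl acetate rats, against 3.49, 3.19 and 6.43 in vehicle rats. The groups lay close together apart from vehicle replicate 3, and without it the median of the list was -0.35. Its part in the lower Dnmt3l and Tsx values was not tested, and in whole tissue fewer cells of a type and less RNA per cell cannot be told apart.

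Kidney cortex markers had 20 of 20 tested and a median of 0.0057. At an unadjusted p under 0.05, 2 were higher and 2 lower, a share of 20% beside 6.74% of all genes. Pendrin, Slc26a4 (-0.96), and the distal tubule protein Calb1 (-0.41) were on the lower side. The summed level was 2133 to 2307 in benzyl acetate rats and 2114 to 2208 in vehicle rats.

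Genes that lie next to the 5 on the chromosome, up to 3 tested genes on each side, did not share the size of their differences. They were chosen after the values were seen. Around Dnmt3l the neighbours ran from -0.26 for the cation channel Trpm2 to 0.25 for the ribosome biogenesis factor Pwp2, with 0.079 for Gatd3a and 0.096 for the phosphofructokinase Pfkl on either side of it. Beside Tsx, the homeobox gene Cdx4 differed by -0.055 and the kinase subunit Phka1 by -0.022. Dkkl1 had Pth2 (-0.13) and the transcription factor Tead2 (-0.30) beside it, both on the other side of 0. The neighbours of Calr3 ran from -0.45 for Klf2, a transcription factor of endothelium and lymphocytes, to 0.047 for Eps15l1, and those of Mcmdc2 from -0.23 for the sulfatase Sulf1 to 0.14 for the dehydrogenase Adhfe1. In the RefSeq annotation Mcmdc2 also overlaps Snord87 and LOC102556004, for which no value is given here.

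**Figure D4:**
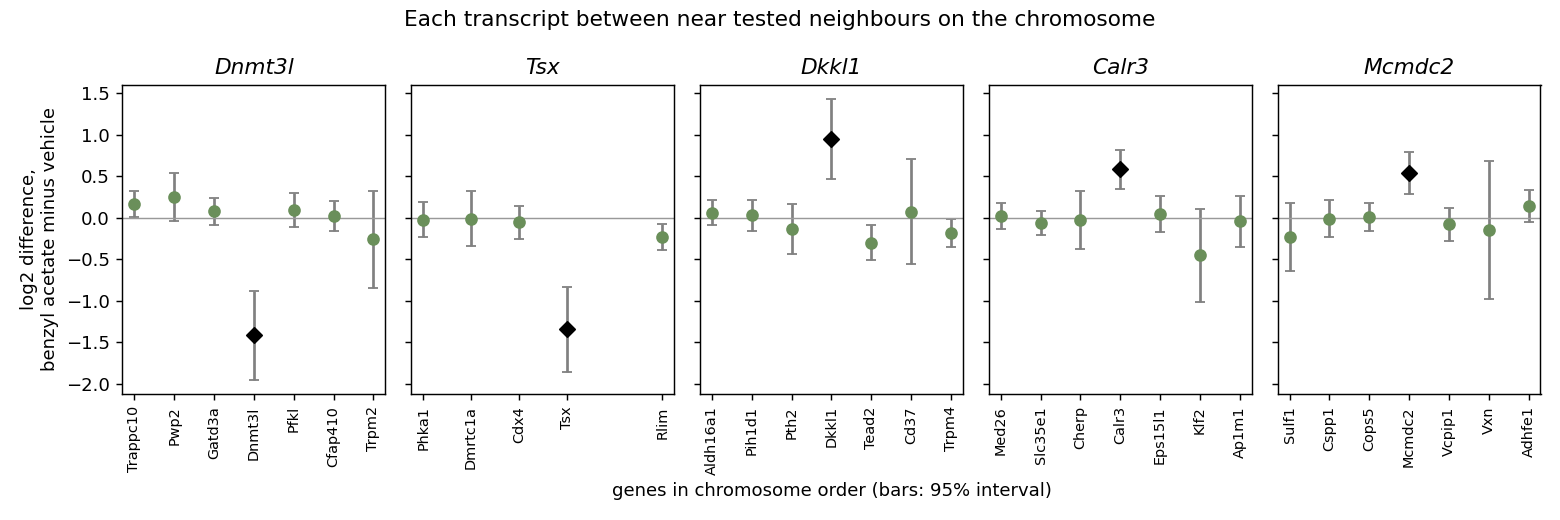
Log2 difference, benzyl acetate minus vehicle, with its 95% interval for each of the 5 transcripts (diamond) and up to 3 near tested genes on each side in chromosome order (points). The neighbours lie between -0.45 and 0.25, nearer to 0 than the transcript in the middle of each panel.

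The genes whose pattern over the 6 arrays was nearest to each transcript were found by the root mean square difference of log2 values centred on each gene's own mean, over 11934 genes with a symbol and well above background on all 6 arrays. For Dnmt3l these were the keratin Krt76 (0.18), the quinone reductase Cryz (0.21) and the PACAP receptor Adcyap1r1 (0.24), against 0.75 for the deviation of Dnmt3l itself from its mean. Cryz (0.28) was also the nearest to Tsx, followed by Garin1b (0.30) and uroguanylin, Guca2b (0.32), against 0.71. Cryz levels were 2.67, 2.58 and 2.57 in benzyl acetate rats, against 3.76, 3.92 and 4.13 in vehicle rats.

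Dkkl1 was nearest to the acyltransferase Mogat2 (0.14), the olfactory receptor Or2b4 (0.21) and Spmap2 (0.22), against 0.53. These genes share with it a highest vehicle value in replicate 3, as for Mogat2 with -0.52, -0.63 and -0.16 in benzyl acetate rats, against -1.39, -1.51 and -0.80 in vehicle rats. Calr3 was nearest to cortistatin, Cort (0.067), the inositol phosphatase Inpp5f (0.080) and the olfactory receptor Or10j3 (0.097), against 0.31. Mcmdc2 was nearest to the myeloid receptor Sirpa (0.082), Cldnd2 (0.083) and the secretoglobin Scgb3a2 (0.085), against 0.29. Each of these lists includes genes of unrelated known roles, and the likeness is a description over 6 arrays that share the same animals.

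Under 21 alternatives of processing or of arrays left out, the log2 difference ran from -1.62 to -0.88 for Dnmt3l, -1.56 to -1.15 for Tsx, 0.77 to 1.17 for Dkkl1, 0.48 to 0.64 for Calr3 and 0.16 to 0.60 for Mcmdc2. The direction was kept in every one of these fits, which is no independent support, since the genes were chosen by these same differences. Where the groups do not overlap, leaving out 1 array cannot reverse the sign. Fits that changed only the replicate block, the filter or the prior returned the same difference.

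**Figure D5:**
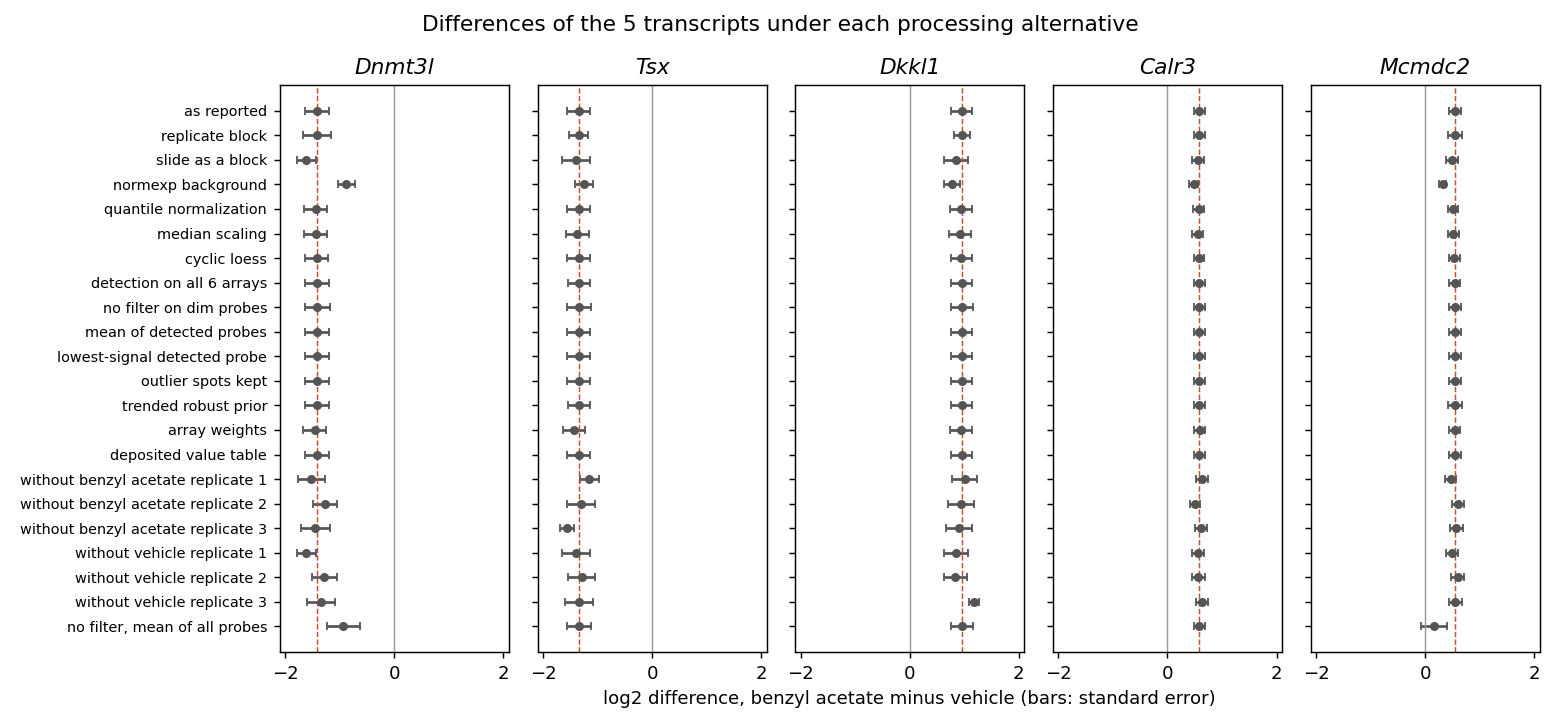
Log2 difference, benzyl acetate minus vehicle, of each transcript as reported (top, dashed line) and under 21 alternatives of processing or of arrays left out; bars are the standard error. All points stay on the same side of 0; Dnmt3l and Mcmdc2 lie nearer to 0 with normexp background correction (-0.88 and 0.33) and with all probes averaged without a filter (-0.94 and 0.16).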

How the data were processed

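Renal cortex RNA of 6 rats was measured on 1-colour Agilent arrays; groups and replicate numbers come from the sample labels. Scanner tables hold intensity values, made with version 10.7 of Agilent Feature Extraction (from the submitters' processing notes) and already background-subtracted, per the file headers, and 0 or 1 flags set by the same software, per the file headers. The deposited value table also holds intensity on a linear scale: each column equals the processed signal divided by its 75th percentile, within an SD of at most 0.000265 log2 over values above 0.05, with medians of 0.1148, 0.1118 and 0.1125 for benzyl acetate and 0.1102, 0.111 and 0.111 for vehicle.

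The deposited processed signal was divided by its 75th percentile over the 61537 non-control probes of each array and put on a log2 scale, without outlier-flagged spots; no spot was saturated. Probes flagged well above background on every array of either group entered (42355 probes), and the brightest probe stood for a gene. Accessions were matched to RefSeq symbols (GRCr8): 28206 probes matched, giving 15645 symbols, and 33331 did not. The array grid names build rn4, so the only coordinates printed are those of the RefSeq windows. Limma 3.58.1 in R 4.3.3 (lmFit, eBayes, Benjamini-Hochberg over all 31179 genes, threshold 0.05) was fitted to both groups and tested on simulated data. The number of arrays limits the precision. Negative-control spots and local backgrounds were read from the same tables.

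The 5 genes and the 14 gene lists (313 genes, 307 in RefSeq) were chosen with earlier results of these data known. Other genes were named by rule: up to 4 list members of lowest unadjusted p under 0.05, or else the 2 brightest tested; the 3 nearest in pattern to each of the 5; and the next in order of p. Chromosome neighbours, Dnmt3a, Dnmt1, Clgn, Pdilt, Spata22 and the defining cell markers were named after their values were seen. A few genes that these choices would name are not reported here. Replicate numbers were not used as pairs. Alternatives were the replicate number or slide as a block, normexp (offset 50, using median spot signals), cyclic loess, quantile or median normalization, other filters and probe rules, keeping outlier spots, array weights, a trended and robust prior, use of the deposited values, and dropping each replicate.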

Additional observations from a re-analysis of the deposited data

How the results depend on the processing

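Over 21 alternatives each of the 5 transcripts kept the direction of its difference. For the fits with 1 array left out this followed from groups that do not overlap. None of the 5 passed an adjusted p of 0.05 in limma, and adjusted p ran from 0.185, for Tsx without benzyl acetate replicate 3, to 0.865. Differences that moved beyond the spread between replicates were those of Dnmt3l (-0.88) and Mcmdc2 (0.33) under normexp, and of Dnmt3l (-0.94) and Mcmdc2 (0.16) with no filter and the mean of all probes, which was chosen after seeing the data and by construction brings in their dimmer second probes. Leaving out each replicate gave -1.62 to -1.27 for Dnmt3l, -1.56 to -1.15 for Tsx, 0.83 to 1.17 for Dkkl1, 0.50 to 0.64 for Calr3 and 0.47 to 0.60 for Mcmdc2. Genes past the threshold numbered 0 in each direction as reported, 2 lower under normexp, and 0 to 3 higher and 0 to 2 lower when each replicate was left out; the cause was not tested. Same-numbered animals did not deviate together (correlations of -0.11, 0.0075 and 0.00095); with the replicate number as a block no gene passed, and the difference of Dnmt3l stayed -1.41 (adjusted p = 0.672). Medians of lists close to 0 changed sign in several alternatives: the meiosis list ran from -0.096 to 0.084 and the X inactivation list from -0.080 to 0.076, while spermatid genes stayed at 0.079 to 0.24 and lymphocyte markers at -0.77 to -0.32. The dim probes of Dnmt3l and Mcmdc2 have the least signal behind them.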

Other observations

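Some listed germ-cell and testis somatic genes outside the rule for naming had wide differences that came with a wide spread between animals, and they were picked after their values were seen. Hormad2, a meiotic chromosome axis protein, had levels of -0.93, -0.87 and -1.06 in benzyl acetate rats, against -3.72, -1.98 and -0.81 in vehicle rats, a log2 difference of 1.22, with the vehicle animals spread widely. Spata22, a meiotic recombination factor, had -1.06, 1.21 and 0.37 in benzyl acetate rats, against -0.47, -0.78 and -1.51 in vehicle rats. Msh4, which stabilises meiotic crossovers, had -4.97, -5.39 and -5.05 in benzyl acetate rats, against -2.55, -5.34 and -4.67 in vehicle rats. Rhox5, an X-linked homeobox gene of Sertoli cells and epididymis, was at -5.20, -5.15 and -3.35 in benzyl acetate rats, against -5.29, -6.10 and -5.92 in vehicle rats. Its difference was 1.21 without overlap, as for 7.51% of all genes on the higher side, and benzyl acetate replicate 3 was the highest. Rhox5 was well above background on 3 benzyl acetate arrays and 2 vehicle arrays, so it passed the filter through the benzyl acetate arrays alone. None of these 4 had an unadjusted p under 0.05 in limma.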
